A study of Mus musculus with 14 samples.

Results

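The response of the lung to chronic ovalbumin (OVA) in mice without MCEMP1 was examined over all genes, by comparing 4 lungs of OVA-challenged Mcemp1-/- mice with 3 lungs of saline-treated Mcemp1-/- mice. These 7 libraries belong to a series of 14 bulk RNA sequencing libraries and were chosen by their genotype. The other 7 libraries, 3 from saline-treated and 4 from OVA-challenged Mcemp1+/+ (wild-type, WT) mice, entered the same model and served as the reference response. All mice were of the C57BL/6 strain. The Mcemp1-/- mice, called KO in the library names, were made with CRISPR-Cas9, which left a short deletion with a frameshift in exon 1 of the gene. Mice of 6 to 8 weeks of age received OVA by intraperitoneal injection on days 1, 4 and 7, and from 5 days after the last injection they were given OVA through the nose once a week for 8 weeks, while controls received saline on both routes. Deletion of Mcemp1 was present in every cell of the animal and was shared by both groups, so OVA was compared with saline within the knockout. Any other difference between these groups of mice or their libraries cannot be told apart from the effect of OVA. The lung was lavaged before it was taken, and each library is a mixture of all cells of the tissue that remained. In such bulk samples, fewer cells of a type and less RNA per cell cannot be told apart.

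MCEMP1 is a membrane protein of mast cells and myeloid cells of the lung. In sensitized mice, repeated inhalation of an allergen brings T helper 2 cells, eosinophils and monocyte-derived macrophages into the lung. Their cytokines interleukin 4 and interleukin 13 act through the transcription factor STAT6 to induce alternatively activated macrophages and to turn airway epithelium towards mucus secretion. B cells mature to plasma cells that secrete class-switched antibody, and interferon gamma from T cells and natural killer cells induces the chemokines CXCL9 and CXCL10.

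To show the kind of regulatory sequence that lies before genes of these programs, 3 promoters of genes that were higher after OVA are printed from RefSeq on GRCm38.p6. Each run holds the 250 bases before the RefSeq start, 5′ to 3′ on the strand of the gene. The promoter of Retnla, from chr16:48842359-48842608 on the plus strand, holds TTCNNNNGAA, a spacing that STAT6 is known to prefer, in capitals 145 to 136 bases before the start. The promoter of Chil4, from chr3:106219480-106219729 on the minus strand, holds TTCNNNGAA, the general spacing of STAT sites, in capitals 200 to 192 bases before the start. The promoter of Cxcl10, from chr5:92348890-92349139 on the minus strand, holds GAAANNGAAA, the core of an interferon-stimulated response element, in capitals 213 to 204 bases before the start. The GENCODE M21 models of Retnla and Chil4 begin inside these windows, upstream of the RefSeq starts.
Retnla: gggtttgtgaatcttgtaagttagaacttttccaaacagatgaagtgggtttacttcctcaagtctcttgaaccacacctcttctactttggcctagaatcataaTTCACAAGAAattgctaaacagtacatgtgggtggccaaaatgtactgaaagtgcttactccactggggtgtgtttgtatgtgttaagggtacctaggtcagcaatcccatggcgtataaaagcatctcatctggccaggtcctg
Chil4: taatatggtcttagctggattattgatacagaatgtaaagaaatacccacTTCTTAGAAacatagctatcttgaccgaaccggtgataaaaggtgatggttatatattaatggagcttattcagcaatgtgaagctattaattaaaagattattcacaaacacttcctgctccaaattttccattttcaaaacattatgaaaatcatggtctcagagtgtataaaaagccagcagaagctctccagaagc
Cxcl10: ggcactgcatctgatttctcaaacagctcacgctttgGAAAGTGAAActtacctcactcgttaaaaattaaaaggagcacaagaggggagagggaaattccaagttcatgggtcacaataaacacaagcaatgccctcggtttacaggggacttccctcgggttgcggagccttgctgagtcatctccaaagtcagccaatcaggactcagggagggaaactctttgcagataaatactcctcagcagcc
Both strands were searched, and the first and second motifs read the same on either strand. Of 32851 mouse promoters of this length, 5.85% held TTCNNNNGAA, 7.02% held TTCNNNGAA and 2.98% held GAAANNGAAA. A RefSeq promoter was found for 13 of the 17 named genes that were higher after OVA and for 34 of the 41 that were lower. Among the former, TTCNNNNGAA stood before Retnla, Lcn2 and Ms4a7, TTCNNNGAA before Chil4, and GAAANNGAAA before Cxcl10 and Slc26a4. Among the latter, TTCNNNNGAA stood before Bmpr1b and TTCNNNGAA before Asgr1 and Rangrf, and no window held GAAANNGAAA in these letters. A match describes letters in the window and is not a measured binding site.

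Mcemp1 itself was read first as a check of the labels. Its normalized value was 3.50, 3.88 and 4.98 in saline KO 1 to saline KO 3, and 4.88, 3.73, 4.17 and 4.25 in OVA KO 1 to OVA KO 4. All 7 knockout libraries lay below all 7 wild-type libraries, which ranged from 9.84 to 20.1. Reads from the exons outside the deleted bases still count towards this value, so it checks the labels only in part. Between the knockout groups it did not pass the test, with a log2 difference of 0.05 ± 0.17 (SE) and a limma adjusted p of 0.94.

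The knockout libraries of OVA-challenged mice were deeper than those of saline-treated mice, at 57.2M to 67.1M estimated reads against 48.5M to 54.3M. All 7 held the defining transcripts of lung epithelium, with Sftpc, surfactant protein C, at 8617 to 12361 and Scgb1a1, the club cell secretoglobin, at 7332 to 29526. The spread between replicates was larger after OVA, with a median SD per gene of 0.164 on the log2 scale in the OVA KO libraries against 0.120 in the saline KO libraries. In wild-type lungs it was 0.180 after OVA and 0.135 with saline, so this was not particular to the knockout. Values are the normalized counts deposited by the authors, and differences were taken on log2(value + 0.5), which understates the change of genes with low values. Adjusted p-values are from limma over the 22771 genes tested, with a threshold of 0.05, and they measure only the spread between these samples.

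After OVA challenge, 107 genes passed the threshold in Mcemp1-/- lungs, or 0.47% of those tested, with 54 higher (0.237%) and 53 lower (0.233%). This counts the genes that passed with these few libraries, not all genes that changed. Higher genes comprised 17 named genes, 3 immunoglobulin constant genes, 30 immunoglobulin variable segments and 4 predicted genes. Lower genes comprised 41 named and 12 predicted genes. A difference of at least 2-fold was estimated for 66 of the calls, 46 higher and 20 lower. In all 107 the saline and OVA values did not overlap, as was the case for 2920 genes, or 12.8%, of all genes tested. The same contrast in wild-type lungs called 1001 genes higher (4.4%) and 1703 lower (7.48%). Counts of calls do not compare the genotypes, and the difference between the 2 responses passed for 1 gene (0.00439%).

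The number of calls depended on the libraries included. Leaving out saline KO 1, saline KO 2 or saline KO 3 gave 11, 29 or 15 calls, and leaving out OVA KO 1, OVA KO 2 or OVA KO 3 gave 40, 49 or 52. Without OVA KO 4 the count was 221, with 93 higher and 128 lower. Without OVA WT 2 it was 168, and without saline WT 2 it was 65. Only 9 calls were kept when each of the 14 libraries was left out in turn, namely Retnla, Cxcl9, Ccl8, 5 variable segments and the predicted gene Gm16867. At an unadjusted limma p under 0.05 there were 2584 of the 22771 genes tested. Of the 107 calls, 25 had a limma adjusted p of 0.045 or more, 15 of them lower. These shares over all genes, 0.47% called and 2584 of 22771 at the unadjusted p, belong beside each list count below. With 0.47% called, a short list without a call is common.

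OVA-challenged Mcemp1-/- lungs did not respond with equal strength. The response of a library was measured without a test, as its log2 value minus the mean of the 3 saline KO libraries, over the 1001 and 1703 genes called in wild-type lung. OVA KO 1 had a median of 0.50 over the genes higher in wild type and -0.62 over those lower. OVA KO 2 had medians of 0.20 and -0.38, OVA KO 3 of 0.24 and -0.18, and OVA KO 4 of 0.08 and -0.23. By both medians OVA KO 1 was thus the strongest responder, whereas OVA KO 4 was weakest over the higher genes and OVA KO 3 weakest over the lower genes. Each saline KO library, set against the mean of the other saline libraries, had medians between -0.05 and 0.06.

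The share of genes that lay in the wild-type direction was again greatest in OVA KO 1. Of the genes higher in wild type, 97.0% lay above the saline KO mean in OVA KO 1, 85.4% in OVA KO 2, 85.4% in OVA KO 3 and 64.9% in OVA KO 4. Of the genes lower in wild type, 98.4%, 93.4%, 73.9% and 84.2% lay below it. Departures of at least 1 on the log2 scale had another pattern. OVA KO 1 had 313 such genes higher and 733 lower, OVA KO 2 had 151 and 234, OVA KO 3 had 435 and 105, and OVA KO 4 had 150 and 82. Saline KO libraries had 22 to 37 higher and 14 to 47 lower. Among the Mcemp1-/- libraries OVA KO 3 thus held the most genes far above saline although its medians were small. The OVA WT libraries were uneven too, with 261 to 1035 genes higher and 424 to 1133 lower against the saline WT mean.

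**Figure D1:**
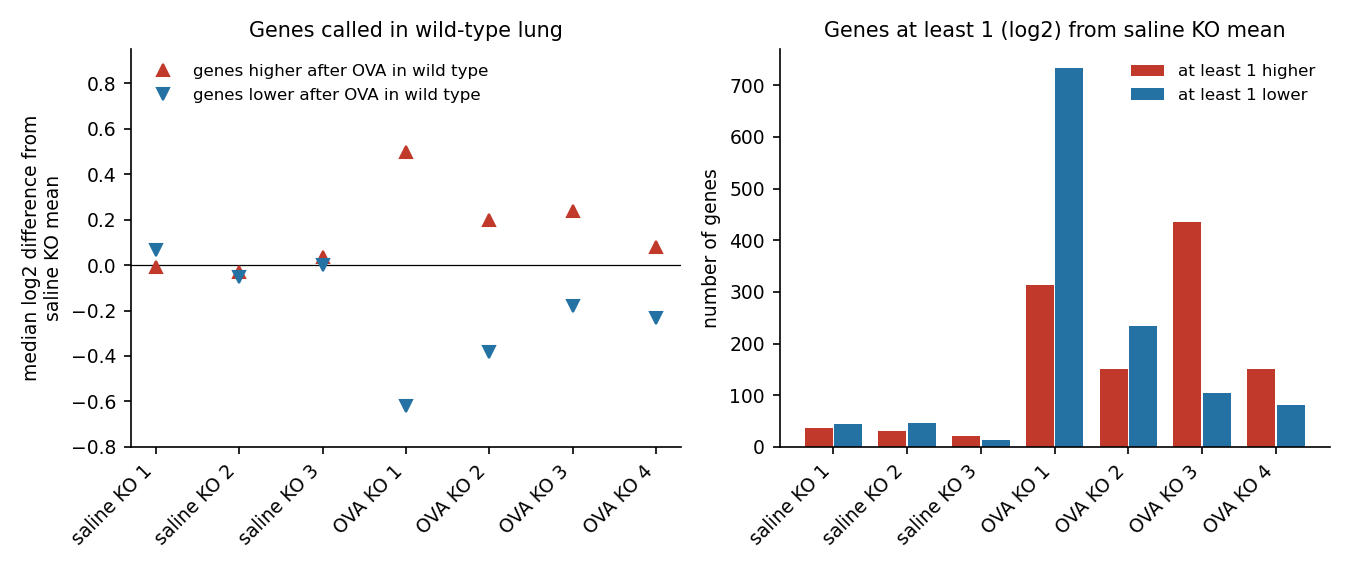
Left, median log2 difference from the saline KO mean for each of the 7 Mcemp1-/- libraries, over the genes called higher and the genes called lower after OVA in wild-type lung. Right, bars count the tested genes at least 1 log2 unit above or below it, with 733 lower genes in OVA KO 1 against 82 in OVA KO 4 and 435 higher genes in OVA KO 3.

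Over the genes called in Mcemp1-/- lungs, which were chosen on these libraries, OVA KO 1 again departed most and OVA KO 4 least. Over the 54 higher calls the median departure was 2.10 in OVA KO 1, 1.65 in OVA KO 2, 1.78 in OVA KO 3 and 1.51 in OVA KO 4. For the 53 lower calls it was -1.17, -0.79, -1.05 and -0.62. OVA KO 4 was the OVA library nearest to saline for 36 of the 53 lower calls and for 15 of the 24 higher calls that were not variable segments. OVA KO 1 was the farthest for 35 and 14 of them. The 30 higher variable segments did not share this order at the near end. Among them OVA KO 2 was nearest to saline for 10, OVA KO 4 for 9 and OVA KO 3 for 8, while OVA KO 1 was farthest for 13.

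Genes of a list for alternatively activated macrophages were among the largest rises, although the cells that made them were not measured. Of 13 measured genes of this list, 3 rose (Retnla, Chil4 and Mmp12) and 1 fell (Cd209f), and the list had a median log2 change of 0.69 against -0.01 over all genes tested. Retnla, which encodes the secreted resistin-like molecule alpha (RELMα, FIZZ1) and lies on chr16:48842551-48844461 of GRCm38, read 62.7, 31.8 and 72.4 in the saline KO libraries. In OVA KO 1 to OVA KO 4 it read 1455, 1087, 1818 and 383. Even the lowest of these, in OVA KO 4, was far above the highest saline value. Its mean rose from 55.7 ± 21.2 (SD, n = 3) to 1186 ± 613 (SD, n = 4), or 21.3-fold, with a log2 change of 4.27 ± 0.47 (SE) and a limma adjusted p of 0.0032. The call was kept without any one of the 14 libraries.

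Chil4, a chitinase-like protein, had the widest spread of this group. It read 0.275, 0.0669 and 0.255 in the saline KO libraries and 21.9, 41.0, 314 and 4.41 in OVA KO 1 to OVA KO 4. OVA KO 3 was the highest and OVA KO 4 the lowest of the OVA libraries, although both stood above every saline library. The log2 change was 5.65 ± 0.99 (SE) with a limma adjusted p of 0.028, and 4.58 with an adjusted p of 0.015 without OVA KO 3. Chil3, its near-identical neighbour, with which it may share reads, read 182, 248 and 244 with saline and 1024, 396, 1048 and 314 with OVA, and missed the threshold with a limma adjusted p of 0.14.

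Mmp12, the macrophage elastase, read 2.74, 3.31 and 4.13 with saline and 20.9, 10.8, 24.4 and 8.34 with OVA. Its mean rose 4.74-fold, from 3.39 ± 0.697 (SD, n = 3) to 16.1 ± 7.76 (SD, n = 4), with a limma adjusted p of 0.025. All 4 OVA libraries were above saline, and OVA KO 2 and OVA KO 4 were the lower pair. Arg1, which encodes arginase 1, read 1.63, 1.52 and 1.30 with saline and 6.74, 3.71, 8.65 and 1.29 with OVA. OVA KO 4 thus stayed at the saline level, and the gene missed the threshold with a log2 change of 1.25 ± 0.53 (SE) and a limma adjusted p of 0.39. Mrc1, the mannose receptor, and Itgax, an integrin of macrophages and dendritic cells, had log2 changes of 0.50 and 0.48 and missed it too, with limma adjusted p-values of 0.26 and 0.31. Cd209f, a C-type lectin of the DC-SIGN family, read 1.82, 1.10 and 1.38 with saline and 0.0790, 0.168, 0.242 and 0.622 with OVA, and fell by 1.34 on the log2 scale.

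Other macrophage and myeloid membrane proteins rose with them, by smaller steps. Ms4a7, a membrane-spanning protein of macrophages, read 2.37, 2.67 and 2.79 with saline and 5.87, 5.34, 5.73 and 4.35 with OVA. Its values varied little in either group, and its mean rose 2.04-fold with a log2 change of 0.90 ± 0.13 (SE) and a limma adjusted p of 0.011. Ms4a6d, of the same family, read 3.76, 4.35 and 4.59 with saline and 14.5, 8.29, 13.9 and 6.25 with OVA. Trem2, a lipid-sensing receptor of macrophages, went from 1.69 to 2.06 with saline to 4.71, 3.77, 4.15 and 2.73 with OVA. The calls of Ms4a6d and Trem2 were kept in 3 and 4 of the 14 leave-out fits. In the list of monocyte and macrophage markers, Ms4a7 and Trem2 were the 2 that rose of 13 measured, and the list median was 0.44. C1qb, a complement gene of tissue macrophages, read 13.3, 15.8 and 15.9 with saline and 29.1, 20.9, 23.8 and 23.4 with OVA, and missed the threshold with a limma adjusted p of 0.098. None of 12 markers of alveolar macrophages passed, with a list median of 0.12.

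AA467197, the mouse counterpart of human C15orf48, and Lcn2, the siderophore-binding lipocalin 2, also rose. AA467197 read 1.83, 1.60 and 2.27 with saline and 10.4, 7.69, 15.3 and 4.66 with OVA, a 5.00-fold rise of the mean with a limma adjusted p of 0.011. Lcn2 read 77.2, 101 and 118 with saline and 167, 151, 212 and 209 with OVA. In contrast to the macrophage genes, Lcn2 in OVA KO 4 was among the high values, and its mean rose 1.87-fold with a limma adjusted p of 0.036. Lcn2 was the 1 gene of 9 measured that passed in the list of acute phase and epithelial defence genes. Gpr176, an orphan receptor, read 0.398, 0.451 and 0.573 with saline and 1.26, 1.16, 0.924 and 1.13 with OVA, with a log2 change of 0.73 ± 0.11 (SE) and a limma adjusted p of 0.011.

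Chemokines for T cells and monocytes rose, and each that passed was higher in every OVA library than in every saline library. Ccl8, a ligand of CCR8 in mice that attracts T helper 2 cells, had the smallest p of the whole comparison. It read 1.33, 0.836 and 1.30 with saline and 11.2, 7.60, 12.8 and 7.91 with OVA. Its mean rose 8.54-fold, from 1.16 ± 0.279 (SD, n = 3) to 9.88 ± 2.56 (SD, n = 4), with a log2 change of 2.63 ± 0.21 (SE) and a limma adjusted p of 0.00014. The 4 OVA libraries were close to each other, and OVA KO 4 was not the lowest.

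Cxcl9 and Cxcl10, the interferon-induced ligands of CXCR3, followed the order of the libraries given by the genes higher in wild type. Cxcl9 read 0.398, 0.435 and 0.494 with saline and 22.9, 8.86, 12.1 and 3.63 with OVA. Its mean rose 26.9-fold, from 0.442 ± 0.0486 (SD, n = 3) to 11.9 ± 8.13 (SD, n = 4), with a log2 change of 3.46 ± 0.43 (SE) and a limma adjusted p of 0.0053. Cxcl10 read 0.992, 0.719 and 1.17 with saline and 12.7, 5.38, 5.83 and 2.20 with OVA. Both were highest in OVA KO 1 and lowest in OVA KO 4. The 6.80-fold rise of Cxcl10 lay at the edge of the threshold, with a limma adjusted p of 0.0499, and its call was kept in 2 of the 14 leave-out fits.

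Among 13 inflammatory chemokines measured, Cxcl9 and Cxcl10 were the 2 that passed, and the list median was 0.70. Ccl2, Ccl9 and Ccl5 had log2 changes of 0.92, 0.84 and 0.52 and did not pass. None of 12 lymphoid chemokines and receptors passed, with a list median of 0.36.

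**Figure D2:**
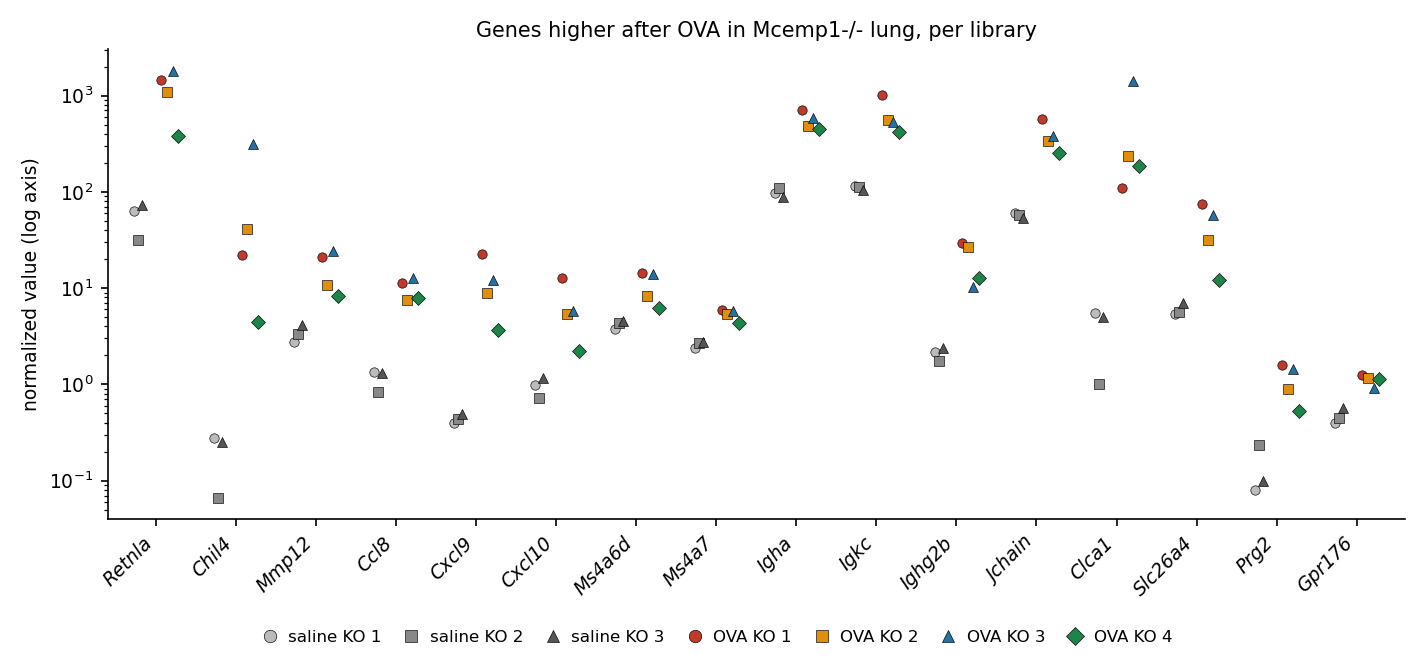
Normalized value (log axis) of 16 genes that were higher after OVA, 1 point per library, for saline KO 1 to 3 and OVA KO 1 to 4. In each gene the OVA points lie above the saline points, and in Retnla, Cxcl9, Cxcl10 and Chil4 the lowest OVA point is OVA KO 4, at 383, 3.63, 2.20 and 4.41.

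The genes that respond to interferon inside cells did not pass the test. Of 19 measured genes of the list none was called, 8 had an unadjusted limma p under 0.05, and the median log2 change was 0.42. Over all genes tested, 2584 of 22771 had such an unadjusted p. Gbp5, a guanylate-binding protein, read 11.4, 11.9 and 11.1 with saline and 27.5, 16.7, 15.6 and 14.3 with OVA. Its OVA values were all higher, with OVA KO 1 the farthest from saline, and the limma adjusted p was 0.36. In Ifng itself the values went from 0.235, 0.447 and 0.176 to 0.649, 0.546, 0.450 and 0.635, with a limma adjusted p of 0.14. The list score, the mean log2 value of its members, departed from saline by 0.81 in OVA KO 1, 0.36 in OVA KO 2, 0.44 in OVA KO 3 and 0.07 in OVA KO 4.

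Genes of class II antigen presentation showed a similar level of change. None of 9 passed, 6 had an unadjusted limma p under 0.05, and the median was 0.36. Ctss, which encodes the protease cathepsin S that trims the invariant chain, came nearest, with 96.4, 101 and 123 with saline, 245, 152, 189 and 153 with OVA, and a limma adjusted p of 0.056. H2-Aa, a class II chain, read 257 to 298 with saline and 462, 345, 309 and 375 with OVA. The OVA values of both genes were all above saline without passing the threshold.

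Type 2 cytokines were at low values and did not pass the test. Of 21 measured genes of the type 2 list, Ccl8 alone passed, and the list median was 0.26. Il13 read 0.169, 0.0159, 0.109 and 0.0286 in OVA KO 1 to OVA KO 4, with a log2 difference from saline of 0.12 and a limma adjusted p of 0.71. Il5 and Il4 had differences of -0.01 and -0.12 and did not pass. Il33, an alarmin of epithelial and stromal cells, read 65.6, 74.4 and 84.6 with saline and 118, 121, 163 and 112 with OVA. The groups of Il33 did not overlap, but its log2 difference of 0.77 had a limma adjusted p of 0.078. Ccl11, the eotaxin that attracts eosinophils, read 1.23, 1.47 and 1.94 with saline and 4.28, 2.71, 8.97 and 1.64 with OVA, where OVA KO 4 lay within the saline range.

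Of the eosinophil markers, Prg2, the major basic protein of eosinophil granules, rose from very low values. It read 0.0795, 0.234 and 0.0988 with saline and 1.58, 0.904, 1.43 and 0.529 with OVA, with a log2 change of 1.29 ± 0.22 (SE) and a limma adjusted p of 0.024. Each OVA library was above each saline library, with OVA KO 4 the lowest again. Without OVA KO 1 the adjusted p of Prg2 was 0.059 and without OVA KO 3 it was 0.053. Prg2 is also made by some other cells, and it was the 1 marker that passed of 8 measured in a list of 10. Siglecf, a receptor of eosinophils and alveolar macrophages, read 7.14 to 7.27 with saline and 8.01, 8.90, 6.38 and 8.58 with OVA, which overlap. Ear2, a ribonuclease of eosinophils and macrophages, read 24.9 to 30.7 with saline and 56.7, 39.7, 49.0 and 34.4 with OVA, with a limma adjusted p of 0.16.

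Mast cell markers, which bear on the cell type in which MCEMP1 is known, did not pass the test. None of 11 measured markers of a list of 16 passed, 0 had an unadjusted limma p under 0.05, and the list median was 0.02. Kit, the receptor for stem cell factor, read 135, 200.3 and 168 with saline and 239, 176, 139.5 and 209.7 with OVA. Its log2 difference was 0.17 ± 0.20 (SE), and the groups overlapped. Cpa3, carboxypeptidase A3 of mast cell granules, read 0.795, 0.735 and 0.514 with saline and 0.995, 0.888, 0.362 and 0.515 with OVA. Cma1, a chymase, read 0.752 to 1.03 with saline and 1.67, 1.32, 1.01 and 1.09 with OVA, with a limma adjusted p of 0.50. Kit is also expressed by other cells of the lung, and the protease genes that define mast cells were near 1 or below, so a change of small size was not detectable at this level.

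Immunoglobulin genes made up 33 of the 54 higher calls. Igha, Igkc and Ighg2b rose among the constant genes, and so did Jchain, which joins IgA and IgM into polymers. Igha, the constant region of IgA, read 97.2, 111 and 89.2 with saline and 712, 481, 588 and 444 with OVA. Its mean rose 5.61-fold, from 99.0 ± 10.9 (SD, n = 3) to 556 ± 120.3 (SD, n = 4), with a log2 change of 2.46 ± 0.43 (SE) and a limma adjusted p of 0.028. The 4 OVA libraries were close to each other, with OVA KO 1 the highest. Igkc, the kappa light chain, read 116, 113 and 105 with saline and 1019, 557, 526 and 421 with OVA, a 5.67-fold rise with a limma adjusted p of 0.026. Here OVA KO 1 stood well above the other OVA libraries.

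Ighg2b, the constant region of IgG2b, read 2.17, 1.74 and 2.4 with saline and 29.5, 26.6, 10.2 and 12.9 with OVA. It rose 9.41-fold with a limma adjusted p of 0.025, and OVA KO 3 and OVA KO 4 were the lower pair. Jchain read 60.1, 57.2 and 53.5 with saline and 578, 340.5, 382 and 251 with OVA, a 6.82-fold rise with a limma adjusted p of 0.048. Without OVA KO 1 the adjusted p of Igha was 0.093, that of Igkc was 0.078 and that of Jchain was 0.15, with log2 changes of 2.34, 2.16 and 2.48.

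Other antibody classes differed between OVA-challenged lungs by more than the called genes did. Ighg1, the constant region of IgG1, was at 0.158 to 0.258 with saline and at 41.2, 157, 112 and 2.26 with OVA. OVA KO 4 therefore held far less IgG1 RNA than the other 3, although it stood above saline, and the limma adjusted p was 0.079. Ighg2c, the IgG2 class of C57BL/6 mice, had another order, with 0.927, 1.97 and 1.41 with saline and 32.4, 48.4, 15.3 and 44.5 with OVA, so OVA KO 4 was among the high libraries. Its limma adjusted p was 0.062. Ighm, the constant region of IgM, read 59.2 to 74.8 with saline and 716, 124, 67.2 and 87.8 with OVA, and only OVA KO 1 was far from saline. Ighe, of IgE, read 0.131, 0.111, 0.526 and 0.114 after OVA and had a limma adjusted p of 0.65. Of 12 measured constant genes 3 passed, 8 had an unadjusted limma p under 0.05, and the list median was 2.00.

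The variable segments moved with the constant genes. Of 180 immunoglobulin and T cell receptor segments tested, 30 rose and 0 fell, with a median log2 change of 1.00 over all 180 and changes of 0.44 to 2.67 among the called. Segments were tested if they reached 0.2 in at least 3 libraries, and some did so only through OVA libraries. Ighv5-12, for example, reached it only in OVA KO 1, OVA KO 3 and OVA KO 4. The median and the count of rises are therefore biased upwards by this filter. By locus, 17 of 75 heavy chain variable segments and 13 of 74 kappa segments rose, while 0 of 3 lambda segments did. Summed over all measured segments, the heavy chain values were 16.9, 22.4 and 18.7 with saline and 195, 94.3, 106 and 102 with OVA. The kappa sums were 25.9, 32.1 and 27.9 with saline and 313, 135, 133 and 144 with OVA. OVA KO 1 was the highest by both sums, and the other 3 OVA libraries were close together. Segments of one family are near copies of each other and can share reads, so a single segment is uncertain where the sums are less so.

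Markers of plasma cells and B cells are given beside these counts. Of 12 plasma cell genes Jchain was the 1 that passed, 9 had an unadjusted limma p under 0.05, and the median was 0.52. Mzb1, a chaperone of antibody-secreting cells, read 4.02, 2.90 and 3.86 with saline and 21.5, 8.22, 8.15 and 4.63 with OVA, with a limma adjusted p of 0.27. None of 10 B cell markers passed, with a median of 0.44. The plasma cell score departed from saline by 1.25, 0.56, 0.61 and 0.42 in OVA KO 1 to OVA KO 4. The saline KO lungs already held more Igha than saline WT lungs, at 89.2 to 111 against 10.6 to 21.1, and the OVA WT libraries read 65.4, 50.5, 256 and 134.

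Airway mucus genes rose in part, and here one library stood apart. Clca1, a secreted protein of goblet cells that is a classical target of interleukin 13, read 5.53, 1.00 and 4.96 with saline and 109, 236, 1411 and 185 with OVA. All OVA values were far above the highest saline value, and OVA KO 3 was the highest. The mean rose 127-fold, with a log2 change of 6.29 ± 1.18 (SE) and a limma adjusted p of 0.044. Without OVA KO 3 the log2 change was 5.52 and the adjusted p was 0.081. Slc26a4, the anion exchanger pendrin, read 5.45, 5.65 and 7.00 with saline and 75.4, 31.6, 57.3 and 12.0 with OVA, with a limma adjusted p of 0.036. For Slc26a4, OVA KO 1 was highest and OVA KO 4 lowest, as for Cxcl9 and Cxcl10 and unlike Clca1.

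The mucins themselves were highest in OVA KO 3. Muc5ac read 5.03, 3.01 and 5.30 with saline and 3.15, 4.87, 82.6 and 9.44 with OVA. Muc5b was at 249, 128 and 210.0 with saline and at 19.6, 37.8, 452 and 82.2 with OVA, so 3 of 4 OVA libraries were below all saline libraries. Neither mucin passed, with a limma adjusted p of 0.68 for each. Agr2, a disulfide isomerase needed for mucin folding, read 2.89, 6.26, 77.3 and 5.52 after OVA, and Fcgbp, a mucus protein, read 12.9, 26.5, 191 and 21.9. Of 14 measured goblet and mucous genes, Clca1 and Slc26a4 were the 2 that rose, and the list median was 1.11. The list score departed from saline by 0.59, 0.92, 3.61 and 1.00 in OVA KO 1 to OVA KO 4.

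OVA KO 3 was also the highest library for most genes that differed widely among the OVA-challenged Mcemp1-/- lungs. Among the 50 genes of the widest log2 range over these 4 libraries, 43 were highest in OVA KO 3, 5 in OVA KO 1 and 1 in OVA KO 2. The 10 widest named genes were Bpifa1, Clca3b, Ltf, A2ml1, Chil4, Pck1, Krt15, Ighg1, Reg3g and Car3. Bpifa1, a secreted protein of the upper airway epithelium, read 18.7, 14.2, 1885 and 27.2 in OVA KO 1 to OVA KO 4. With saline it read 68.0 to 143, so the other OVA libraries lay below every saline KO library. Ltf, lactoferrin of glands and neutrophils, read 9.44, 11.9, 861 and 43.8, and 25.4 to 43.3 with saline. Reg3g, an antibacterial lectin, read 49.3, 27.5, 1406 and 70.1, and 21.1 to 62.5 with saline. These 3 genes encode secreted defence proteins of large airways and glands, and among the OVA libraries each had a single high one.

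Single genes of basal cells and of fat were high in the same library. Krt15, a keratin of basal epithelial cells, read 0.619, 0.0793, 33.7 and 0.357, and Clca3b, of the family of Clca1, read 0.463, 0.0318, 59.2 and 0.459. With saline these 2 genes read 0.237 to 0.457 and 0.0167 to 0.0596. Pck1, a gluconeogenic enzyme also made by fat cells, read 0.319, 0.222, 44.4 and 0.4, and Car3, a carbonic anhydrase of fat and muscle, read 6.51, 1.43, 94.5 and 4.90. With saline Pck1 read 1.94 to 5.65 and Car3 19.0 to 33.4, so the other OVA libraries lay below every saline KO library. A2ml1, a protease inhibitor of epithelium, read 19.8, 7.82, 534 and 35.9, and 14.6 to 26.4 with saline. Among the 10 genes Ighg1 was the exception, with its highest value in OVA KO 2. Krt5, Trp63 and Pax9, further genes of the airway epithelium that were chosen after their values were seen, read 11.4, 6.43 and 14.9 in OVA KO 3. Krt14, the partner keratin of Krt5 in basal cells, chosen in the same way, read 0.311 there, within the 0.0836 to 0.457 of the saline KO libraries. The part of these airway genes in the differences between OVA and saline was not tested, and leaving out OVA KO 3 gave 52 calls in place of 107, 34 higher and 18 lower, of which 28 and 13 were among the 107.

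**Figure D3:**
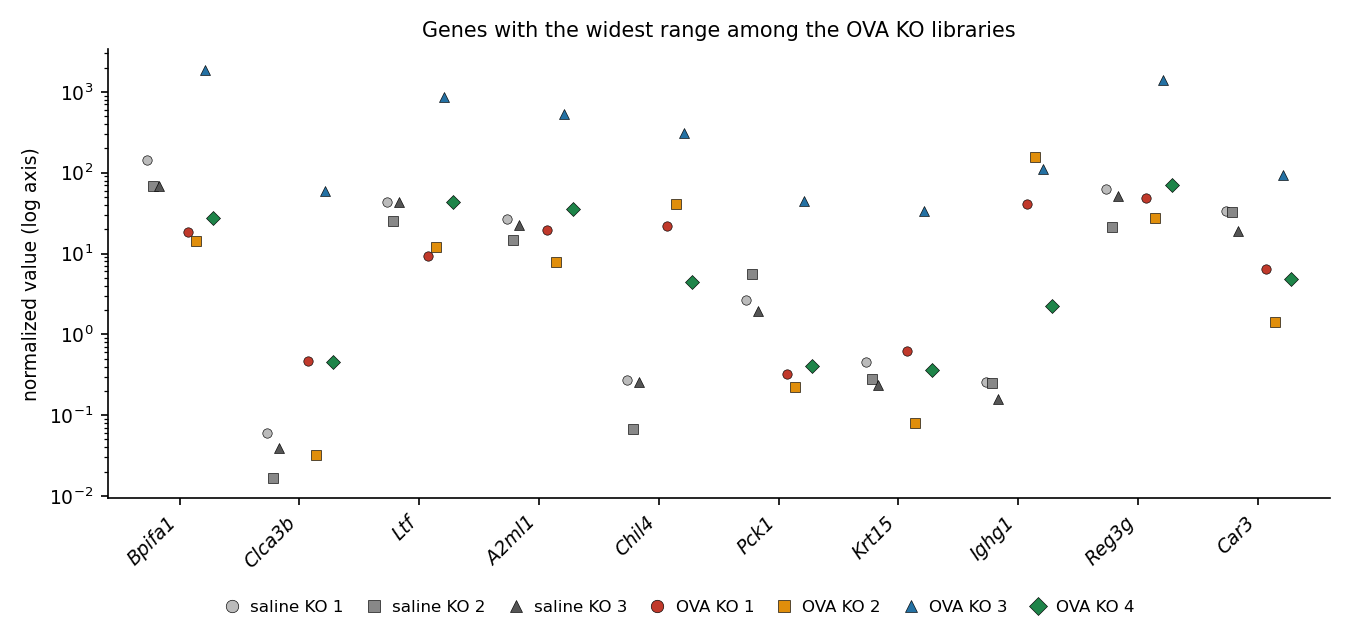
Normalized value (log axis) of the 10 named genes with the widest range over the 4 OVA KO libraries, 1 point per library, with the saline KO libraries beside them. OVA KO 3 is the highest library in 9 of the 10 genes, for example 1885 against 14.2 to 27.2 in Bpifa1, and Ighg1 is highest in OVA KO 2.

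Both fibroblast markers that passed the test, Pi16 and Dcn, fell. Pi16, a marker of adventitial fibroblasts, read 26.6, 28.3 and 24.6 with saline and 8.31, 8.84, 11.5 and 13.6 with OVA. Its mean fell from 26.5 ± 1.85 (SD, n = 3) to 10.6 ± 2.47 (SD, n = 4), to 39.9% of saline, with a log2 change of -1.31 ± 0.18 (SE) and a limma adjusted p of 0.0073. Dcn, the collagen-binding proteoglycan decorin, read 196, 141 and 175 with saline and 83.0, 59.6, 70.6 and 113 with OVA, and fell to 47.8% with a limma adjusted p of 0.025. The groups of both genes were clear of each other, with OVA KO 4 nearest to saline. The call of Pi16 was kept in 13 of the 14 leave-out fits and that of Dcn in 9.

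Other called genes that fell are known from stromal cells or encode secreted proteins, and they were grouped here after the calls were known. Scara5, a scavenger receptor of adventitial fibroblasts, read 11.0, 10.7 and 11.3 with saline and 1.91, 1.89, 3.28 and 7.44 with OVA. Its limma adjusted p was 0.0499, and without OVA KO 4 the log2 change was -2.04 in place of -1.66. Serpinf1, the pigment epithelium-derived factor, read 19.7, 16.9 and 17.3 with saline and 5.24, 6.95, 6.23 and 12.5 with OVA. OVA KO 4 again gave the smallest fall in Scara5 and Serpinf1. Olfml2b, an extracellular matrix protein, was tighter, with 12.2, 12.1 and 12.3 with saline, 6.06, 7.17, 5.82 and 8.29 with OVA and a limma adjusted p of 0.0092. Sfrp4, a Wnt antagonist, read 1.39 to 2.39 with saline and 0.713, 0.809, 0.598 and 1.04 with OVA. Cygb, cytoglobin of stromal cells, read 37.9 to 46.3 with saline and 31.0, 21.5, 19.1 and 28.9 with OVA, and Entpd2, an ectonucleotidase, 4.94 to 6.24 with saline and 2.4, 2.81, 2.72 and 3.46 with OVA.

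Of the 16 fibroblast markers measured, Pi16 and Dcn were the 2 that fell, and the list median was -0.17. Pdgfra, a receptor found on most lung fibroblasts, read 132, 279.9 and 192 with saline and 207, 198, 140.4 and 293 with OVA, which overlap. Clec3b, tetranectin, read 54.1 to 60 with saline and 35.7, 31.1, 23.3 and 34.8 with OVA, with a limma adjusted p of 0.065. The score of the whole list departed from saline by -0.17, -0.36, -0.62 and -0.04, and none of the matrix remodelling genes passed, with a list median of 0.00.

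Signalling genes of the BMP family were lower in 2 cases. Bmpr1b, a type I BMP receptor, read 21, 20.4 and 20.7 with saline and 6.12, 9.55, 9.59 and 10.8 with OVA. The saline values were nearly equal, and the mean fell to 43.5%, with a log2 change of -1.19 ± 0.17 (SE) and a limma adjusted p of 0.010. Gdf10, a ligand related to BMP3, read 7.38 to 8.46 with saline and 4.33, 4.82, 2.81 and 4.48 with OVA. In the BMP list Bmpr1b was the 1 gene of 15 that passed, and the median was -0.03.

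Ion channel, synaptic and related genes that fell had mostly small values. Rangrf, a protein that binds the nuclear transport GTPase Ran, read 0.823, 1.02 and 1.07 with saline and 0.471, 0.455, 0.245 and 0.308 with OVA. Kcnd2, the potassium channel Kv4.2, read 0.669 to 0.775 with saline and 0.281 to 0.412 with OVA. Chrna9, a nicotinic receptor subunit, read 0.497 to 0.602 with saline and 0.169 to 0.301 with OVA. In these 3 genes the groups did not overlap, but all values were near or under 1.

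The remaining genes of this kind were Gnb5, a G protein beta subunit, Rimbp2 and Homer2, scaffold proteins of synapses, Nts, neurotensin, Resp18, a protein of endocrine secretory granules, and Fxyd6, a regulator of the sodium pump. Their log2 changes were -0.38, -0.61, -0.73, -0.71, -1.03 and -0.67 in that order. Gnb5 had the smallest change of these, from 17.3 to 19.1 with saline to 13.0 to 14.3 with OVA. The mean over the saline KO libraries was under 1 for 11 of the 53 lower calls and the OVA KO mean was under 1 for 4 of the 54 higher calls.

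The largest falls on the log2 scale were those of Asgr1 and Gdpd2, and several genes of epithelia fell with them. Asgr1, a subunit of the asialoglycoprotein receptor, read 7.91, 4.61 and 5.30 with saline and 0.619, 2.35, 1.21 and 1.83 with OVA. It fell to 25.3%, with a log2 change of -1.74 ± 0.28 (SE) and a limma adjusted p of 0.020. Gdpd2, a glycerophosphodiester phosphodiesterase, read 25.7, 23.8 and 19.7 with saline and 3.26, 7.23, 7.01 and 11.1 with OVA, and fell to 31.0% with a limma adjusted p of 0.035. For both genes OVA KO 1 was lowest. Rptn, repetin, Prom2, prominin 2, Azgp1, a zinc-binding glycoprotein, and Upk1a, a uroplakin, are genes of surface epithelia and had log2 changes of -1.46, -1.20, -1.23 and -0.91. Prom2 read 3.11 to 4.43 with saline and 0.713, 1.43, 1.5 and 1.74 with OVA. Hpn, a membrane serine protease, and Pcsk6, a proprotein convertase, had log2 changes of -0.52 and -0.97.

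Genes of centrosomes and of the cell skeleton fell by less but with a narrow spread. Cep70, a centrosomal protein, read 42.1, 37.2 and 39.9 with saline and 17.9, 26.9, 21.2 and 24.2 with OVA, with a log2 change of -0.82 ± 0.11 (SE) and a limma adjusted p of 0.0062. Ccno, the cyclin that drives formation of multiple cilia, read 3.12 to 3.73 with saline and 1.29, 1.92, 2.08 and 2.10 with OVA. Both were lowest in OVA KO 1. Enah, a regulator of actin filaments, read 97.2 to 107 with saline and 45, 59.4, 61.4 and 75.9 with OVA, and Ascc2, a subunit of the activating signal cointegrator complex, 127 to 144 with saline and 72.1, 95.4, 84.1 and 96.8 with OVA.

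The other named genes that fell belong to no list used here. Gfy, a Golgi protein of olfactory neurons, read 1.13 to 1.59 with saline and 0.244, 0.444, 0.181 and 0.543 with OVA, with a limma adjusted p of 0.012. Mycl, a MYC family transcription factor, Iyd, iodotyrosine deiodinase, Depp1, a regulator of autophagy, and Ppp2r2b, a regulatory subunit of protein phosphatase 2A, had log2 changes of -1.01, -0.91, -0.80 and -1.19. Kash5 and Mei4, genes of meiosis, had log2 changes of -1.10 and -0.74, and Mei4 was under 1 in all 7 libraries. Eif1ad2 read 0.743, 0.294 and 0.437 with saline and 0.0681, 0.0212, 0.0181 and 0.0172 with OVA. Its OVA values were at the bottom of the measured range, so no fold is given.

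**Figure D4:**
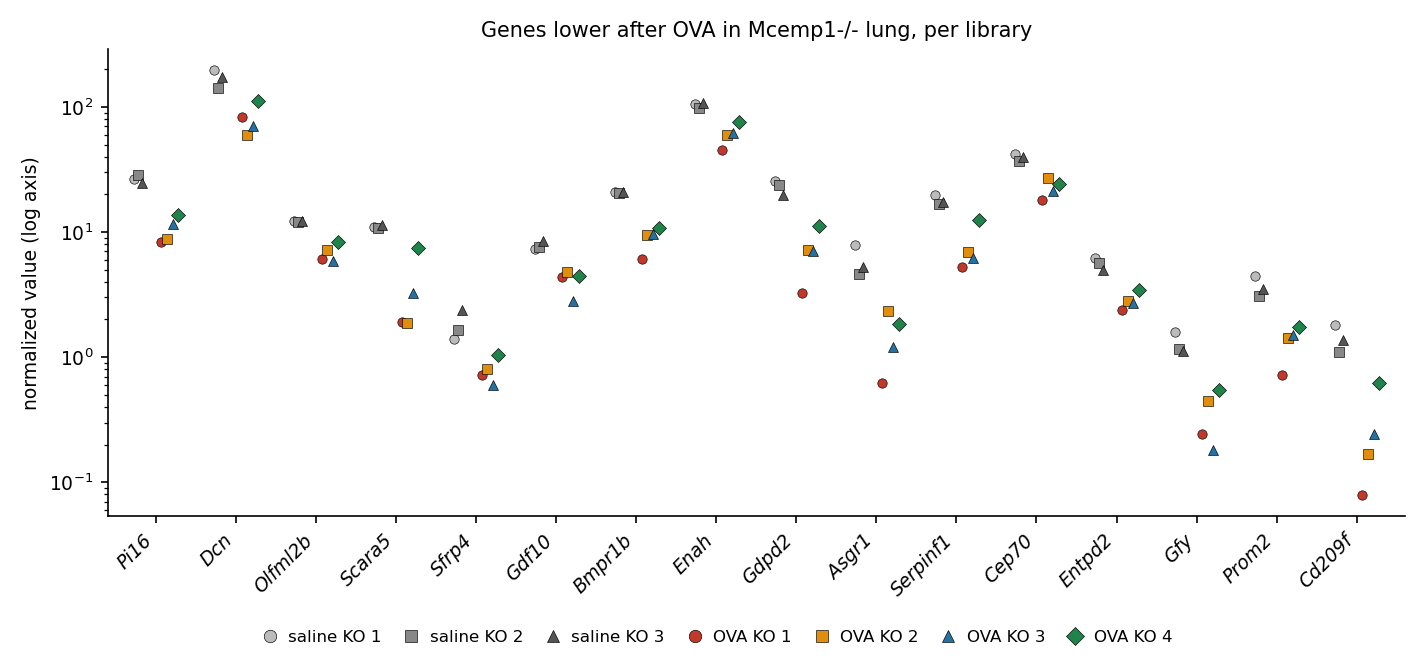
Normalized value (log axis) of 16 genes that were lower after OVA, 1 point per library, for saline KO 1 to 3 and OVA KO 1 to 4. In each gene the OVA points lie below the saline points, and in Pi16, Scara5, Serpinf1 and Cd209f the highest OVA point is OVA KO 4, at 13.6, 7.44, 12.5 and 0.622.

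Cell type lists that moved in some libraries are given here because their genes share a tissue with those above. None of 10 club cell markers passed, but 8 had an unadjusted limma p under 0.05, and the list median was -0.98. Cyp2f2, a cytochrome of club cells, read 3587, 2670.3 and 2829 with saline and 649, 1375, 1164 and 1918 with OVA, with a limma adjusted p of 0.079. Scgb1a1, the secretoglobin that defines club cells, read 29526, 19857 and 23390.4 with saline and 7332, 15104, 9468 and 16109 with OVA, with a limma adjusted p of 0.12. Every OVA library was below every saline library for both genes. The club cell score departed from saline by -1.5, -0.78, -0.50 and -0.37 in OVA KO 1 to OVA KO 4. The ciliated cell score departed by -1.38, -0.74, 0.34 and -0.37, and 0 of 11 of its genes passed. The part of airway lining in the falls of Asgr1, Gdpd2, Ccno and Cep70 was not tested.

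Genes of heart muscle and fat, tissues that lie beside the lung, had mostly negative changes and varied between libraries. The heart muscle list had a median of -0.94 with 0 of 12 genes called, and its score departed by -1.43, -1.43, 0.26 and -0.60. Of its 12 genes, 11 had a negative change and 8 had an unadjusted limma p under 0.05. In wild-type lungs 11 of them were called lower. Myh6, the atrial myosin, read 102, 274 and 187 with saline and 35.2, 49.1, 149 and 131 with OVA. The adipocyte list had a median of -1.06 with 0 of 9 genes called, and its score departed by -1.42, -1.95, 0.91 and -1.42. Of its 9 genes, 7 had a negative change and 3 had an unadjusted limma p under 0.05. In wild-type lungs 4 of them were called lower. Cfd, the adipocyte protease adipsin, read 22.3, 37.8 and 12.8 with saline and 1.35, 0.460, 41.0 and 2.14 with OVA. OVA KO 3 was thus the 1 OVA library above the saline mean in both lists. Its heart muscle score of 4.99 lay within the 4.12 to 5.07 of the saline KO libraries. The part of heart and fat tissue in the differences between OVA and saline was not tested. Mitochondrial RNA had a median of 0.35 and departures of 0.74, 0.13, 0.64 and -0.07.

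The lists of lymphocytes and dividing cells had positive medians with no calls. None of 16 T cell genes passed, with a median of 0.46, and Ctla4, an inhibitory receptor of activated and regulatory T cells, came nearest. It read 3.00, 2.01 and 2.13 with saline and 11.7, 8.25, 6.62 and 5.62 with OVA, with no overlap and a limma adjusted p of 0.089. Of 12 cytotoxic and natural killer genes 0 passed and 6 had an unadjusted limma p under 0.05, with Gzmb, granzyme B, at 4.31 to 6.53 with saline and 7.54 to 8.72 with OVA. None of 13 cell cycle genes passed, 7 had an unadjusted limma p under 0.05, and Mki67 read 11.3 to 13.3 with saline and 28.5, 14, 19.9 and 18.8 with OVA. Medians lay at 0.25 for neutrophil, 0.20 for dendritic cell, 0.12 for complement, 0.18 for leukotriene and prostaglandin, 0.21 for type 2 alveolar, 0.17 for endothelial, -0.06 for smooth muscle, -0.06 for immediate early and -0.02 for circadian clock genes, each with no gene called. Type 1 alveolar genes had a median of 0.65 and red blood cell genes of -0.26, without a call.

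Both lists that the study drew up from these samples or measured by PCR are not independent of the data. Of 11 core genes of the study, 2 rose in Mcemp1-/- lungs, among them Mmp12, against 8 in wild-type lungs, and the median was 0.47. Of 6 PCR genes, 2 rose, among them Cxcl10, against 4 in wild-type lungs, and the median was 0.69. C3, complement component 3, read 486 to 608 with saline and 966, 501, 714 and 736 with OVA, with a limma adjusted p of 0.54. Il10 read 1.07, 0.349, 0.417 and 0.157 after OVA with a limma adjusted p of 0.61.

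**Figure D5:**
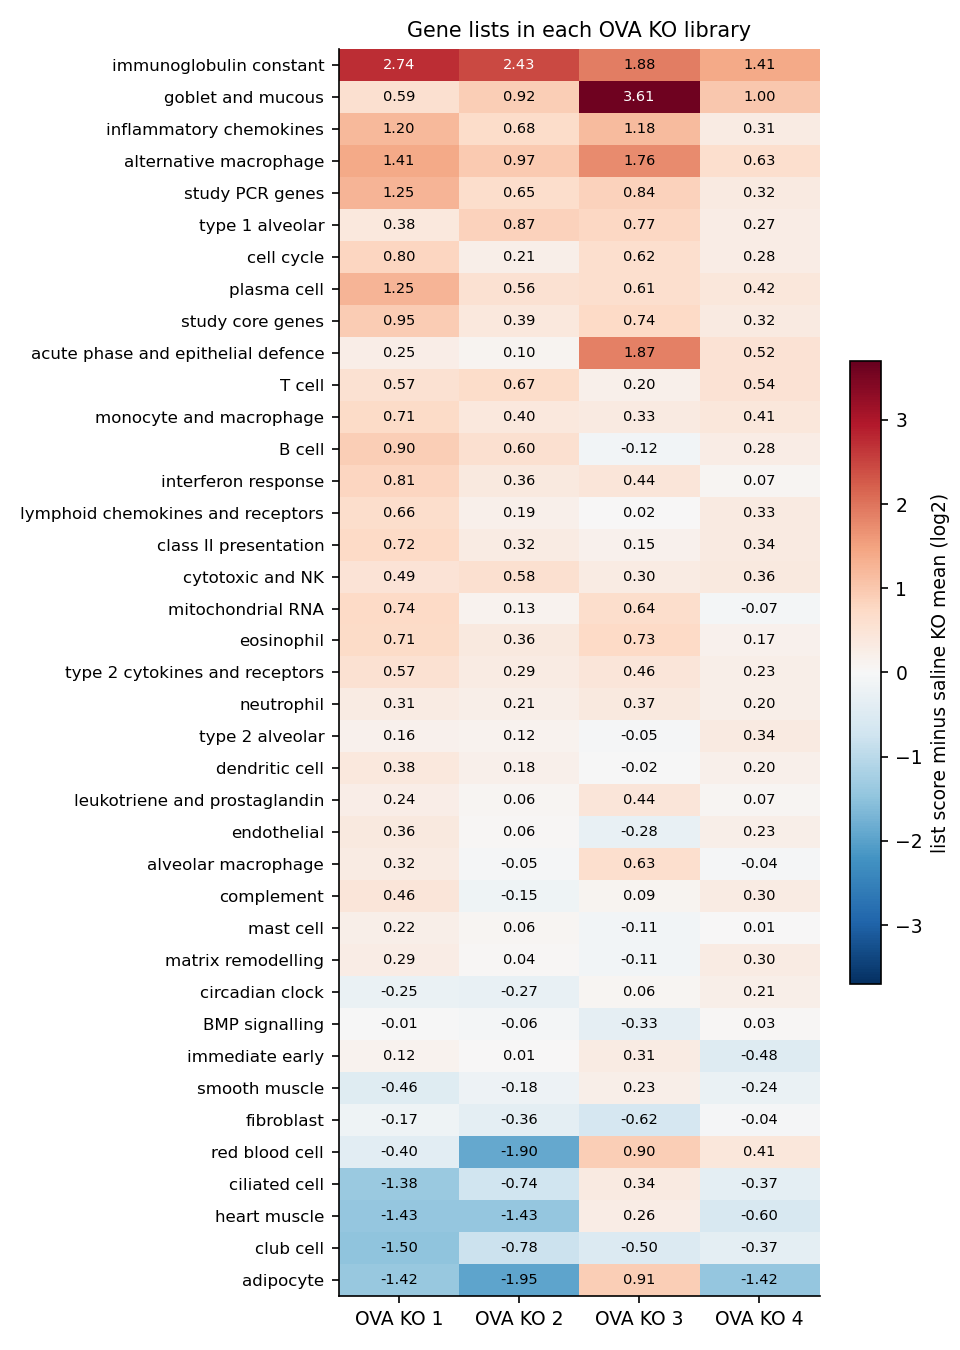
Heat map of the departure of each of 39 list scores (mean log2 value of the measured members) from the saline KO mean, 1 column for each of OVA KO 1 to OVA KO 4. Immunoglobulin constant genes departed by 2.74, 2.43, 1.88 and 1.41, goblet and mucous genes by 3.61 in OVA KO 3 alone, and club cell genes by -1.5 in OVA KO 1.

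The response was then set beside that of wild-type lungs, which has its own saline controls. Of the 54 genes that rose in Mcemp1-/- lungs, 29 were also called higher in wild type, which is 53.7% of the former list and 2.90% of the latter. Of the 53 that fell, 45 were also called lower, which is 84.9% and 2.64%. In 59 of the 107 calls the change had the same direction in both genotypes and was smaller in Mcemp1-/- lungs. Over the 1001 genes higher in wild type the median change was 0.66 in wild type, on whose values they were chosen, and 0.25 in Mcemp1-/- lungs. For the 1703 lower genes it was -0.75 and -0.36.

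Differences between the responses were tested gene by gene, and 1 of 22771 genes, or 0.00439%, passed, while 1604 had an unadjusted limma p under 0.05. Ms4a7 changed by 0.90 in Mcemp1-/- lungs and by 1.58 in wild-type lungs. The difference of -0.68 had an unadjusted limma p of 0.0026 and an adjusted limma p of 0.63. Arg1 differed by -2.58, with an adjusted limma p of 0.64. Retnla, Chil4 and Ccl8 had differences of -0.44, -0.24 and -0.37 with unadjusted limma p-values of 0.52, 0.87 and 0.22. Their adjusted limma p-values were 0.90, 0.98 and 0.79. For all of these genes a difference between the genotypes in the size of the response was not shown after adjustment.

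The gene that passed was Gm16867, a predicted gene at chr14:69363504-69503362 of GRCm38, named because it passed. It read 0.0510, 0.0580 and 0.135 in the saline KO libraries and 1.45, 1.24, 1.27 and 3.05 in the OVA KO libraries. In wild-type lungs it read 3.59, 3.29 and 4.61 with saline and 1.52, 2.66, 1.76 and 1.83 with OVA. The saline KO libraries thus stood alone at a low value, and the other 3 groups lay between 1.24 and 4.61. An effect of OVA and another difference of the saline KO mice cannot be told apart here, and neither was tested. Its log2 change was 1.89 ± 0.23 (SE) in Mcemp1-/- lungs with a limma adjusted p of 0.0053 and -0.84 in wild-type lungs with a limma adjusted p of 0.033. The difference of 2.73 had a limma adjusted p of 0.026. Gm27177, a further predicted gene of the same chromosome that was chosen after its values were seen, at chr14:69582164-69683286, read 5.36, 2.46 and 3.49 with saline and 7.55, 8.74, 7.08 and 8.11 with OVA in Mcemp1-/- lungs, against 11.8 to 15.1 in wild-type libraries.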

How the data were processed

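RNA from lungs of 14 mice was sequenced by the authors after preparation of polyadenylated libraries. Per the labels, reads were aligned to mm10 with STAR and processed in Partek, and the versions are not given in those notes. The deposited values are normalized counts per gene, treated here as a signal, because no normalization method is given in the sources used here. Of the low values 74.3% to 78.3% lie within 0.1 of a whole multiple of the column's lowest value, so they are not whole reads throughout and no count test was run. Depth in estimated reads is the column total divided by that lowest value. In 14 columns 24270 genes were listed. Positions are from GENCODE M21 (99.6% of identifiers found), and the table's own coordinates are not printed, because 2.19% of its gene starts equal the GENCODE starts.

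Values were transformed to log2(value + 0.5). Genes at 0.2 or above in at least 3 libraries were kept, leaving 22771. A linear model of the 4 groups was fitted in limma 3.58.1 under R 4.3.3 (eBayes with trend and robust), with contrasts for OVA against saline in each genotype and for their difference, 2-sided, with Benjamini-Hochberg adjustment and a threshold of 0.05. The authors' own test, Partek's Gene Specific Analysis, was not run. Replicate numbers come from the labels and nothing in them ties equal numbers together. The procedure was tested on simulated data. A list score is the mean log2 value of its tested members, and lists are described by counts and medians without a test. Alternatives covered the pseudocount, filter, scaling, limma settings, samples fitted, replicate block and the omission of each library. The omission of OVA KO 3 and OVA WT 2 together was added after seeing the data.

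Named are Mcemp1, every called gene with a gene name, the immunoglobulin constant genes of the list, up to 6 members of each of the 39 lists, the genes called for the difference between genotypes, the 10 named genes of widest range over the OVA KO libraries with a mean of at least 1, and promoters of 3 of these. Segments and predicted genes were counted. A few of the genes this rule takes are not reported here. Members and lists were chosen with earlier results of these data known.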

Additional observations from a re-analysis of the deposited data

Results flagged for a closer look

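In groups of 4 libraries, a library was marked when its gap to the nearest other, divided by the range of the group, passed Dixon's 95% limit. The test ran over 113 items (74 genes and 39 lists), and 9 were marked. Chance marks about 1 in 20 groups, but that rate does not apply here to 7 of the 8 marked genes. Bpifa1, Clca3b, Pck1 and Krt15 entered by their wide range over these same libraries, and the 3 segments were picked after their values were seen, so their marks only describe them. No explanation was tested.

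Of the 9, 5 were in OVA KO 3. Bpifa1 read 1885 there against 14.2 to 27.2 in the other OVA KO libraries. Clca3b read 59.2 against 0.0318 to 0.463, Pck1 read 44.4 against 0.222 to 0.4, and Krt15 read 33.7 against 0.0793 to 0.619. The goblet and mucous score, a mean log2 value, was 6.00 in OVA KO 3 against 2.98 to 3.39.

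In OVA KO 1 the variable segments Ighv11-2, Igkv14-126 and Ighv12-3 stood apart, at 31.1, 45.9 and 4.26 against 0.109 to 0.557, 0.143 to 0.797 and 0.0317 to 0.0725 in the other OVA KO libraries. Eif1ad2 read 0.0681 in OVA KO 1 against 0.0172 to 0.0212, all of them low values.

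Gm16867 was marked because its difference between OVA and saline was unlike in the genotypes, by 2.73 on the log2 scale with a limma adjusted p of 0.026. Only the saline KO libraries were near 0 for this gene. Gm16867 was higher in 4 of 4 OVA KO libraries than in every saline KO library. Whether OVA or another difference of the saline KO mice lies behind this cannot be told apart.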

How the results depend on the processing

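Under the alternatives tried, none of the 62 calls that were named or counted as constant genes, with Gm16867, changed direction. For most alternatives this was fixed in advance, because the groups of all 107 calls did not overlap. Omissions, weights, limma settings, the pseudocount and the filter could not have reversed a direction. The number of calls was less stable. A fit on the 7 knockout libraries alone gave 24 calls (22 higher, 2 lower), of which 17 and 1 were among the 107. The lower calls thus passed almost only in fits that included the wild-type libraries. Weighting the libraries gave 662 (221 higher, 441 lower) with all 107 kept. Leaving out OVA KO 3 and OVA WT 2 together, chosen after seeing the data, gave 470 (158 higher, 312 lower). The lower calls numbered 29 with a pseudocount of 0.1, 32 with a filter at a value of 1 and 87 with equal column totals. Leaving out 1 library at a time gave 11 to 221 calls, 11 to 93 of them higher and 0 to 128 lower, and 0 to 2 calls for the difference between genotypes. That difference had 0 calls with a pseudocount of 1. Fewer samples were fitted in the knockout fit and in each omission, and the cause of the other shifts was not tested. List medians moved by more than the spread in 6 of 1014 cases. Genes near 1 or below rest on few reads, so their small changes could not be resolved.

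With replicate number as a block there were 125 calls (59 higher, 66 lower, of which 39 and 40 were shared with the 107) and 0 for the difference. Deviations of equal-numbered libraries correlated at 0.075 to 0.122 in the knockout groups and -0.244 to 0.171 in wild type. Not every library correlated best with its own number. With so few libraries in each group, these correlations cannot decide whether equal numbers pair the samples. Pairing was thus neither shown nor excluded.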

Other observations

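The variable segments of OVA KO 1 had another makeup than those of the other OVA-challenged Mcemp1-/- lungs. Ighv11-2, at 31.1, held 15.9% of the summed heavy chain segments there, and Igkv14-126, at 45.9, held 14.7% of the kappa segments. In mice, pairings of such segments are known from B-1a cells, the innate-like B cells that make natural IgM. Igkv4-91 read 13.0 in OVA KO 1 against 0.365 to 2.00 in the others, and Ighm read 716 there against 67.2 to 124. The top heavy segment was Ighv1-26 in OVA KO 2 and OVA KO 3, with 8.08% and 6.31% of the sum, and Ighv10-1 in OVA KO 4, with 7.16%. These segments were chosen after their values were seen, segments of a family can share reads, and the values describe 1 lung.

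Sums over heavy chain segments were 6.33 to 8.79 in saline WT and 16.9 to 22.4 in saline KO libraries, and the OVA WT libraries read 16.0, 45.5, 66.1 and 67.1 against 94.3 to 195 in OVA KO libraries.

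Some airway genes that were high in OVA KO 3 were also high in OVA WT 2, where Bpifa1 read 1057, Krt15 16.8 and Krt5 7.56. The saline WT libraries read 56.4 to 544, 0.272 to 3.04 and 0.0362 to 0.945 for these genes, with the highest value of each in saline WT 1. Pck1 and Car3 read 2.07 and 15.9 in OVA WT 2, above the other OVA WT libraries (0.116 to 0.686 and 1.32 to 3.88) but not above saline WT libraries (1.83 to 9.44 and 32.3 to 79.2). Chil4 read 88.7 in OVA WT 2 and 102 in OVA WT 4. These genes were chosen after their values were seen.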
